A study of Mus musculus with 14 samples.

Results

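The Slit ligands (Slit1, Slit2, Slit3), the Robo receptors (Robo1, Robo2, Robo3) and the srGAPs (Srgap1, Srgap2, Srgap3) are 9 genes of 1 guidance pathway, and their RNA was followed here in embryonic mouse hippocampus. They were chosen by symbol, and each was taken as the row of the gene table whose transcripts carry that symbol, out of 28090 named loci among 59796 loci in all. For Robo2 the table holds 2 rows, so that the 9 genes stand on 10 loci. The row set as the Robo2 member, XLOC_021477, holds a single transcript that the study's list places near the start of the gene, and it is called the 5′ locus. It is not the larger row of the gene: the other, XLOC_021476, holds 2 transcripts and is called the main locus. Both are given throughout. Robo2 stands in the study's own list from these same libraries, so values that single it out are not independent evidence of its direction.

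RNA-seq was made from hippocampi dissected from embryos of E16 to E18. The 14 libraries comprised 3 of 189N3 mice, which carry an extra copy of Dyrk1a on a bacterial artificial chromosome, 3 of wild-type littermates, 4 of Dp(16)1Yey/+ mice, which carry an extra copy of the stretch of chromosome 16 that corresponds to human chromosome 21, and 4 of wild-type mice from the same litters. The extra Dyrk1a copy is shared by both models, since Dyrk1a lies within the stretch, and the wild-type littermates carry neither. Each line is a single transgene or duplication, and the strain of the littermates used for RNA-seq and the litters are not given in the sources used here. The methods give as many embryos per genotype as there are libraries, but no label ties a library to an embryo or a litter, so p-values measure the spread between these libraries. In whole tissue, fewer cells of a type and less RNA per cell cannot be told apart.

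Slits are large secreted proteins, and Robos are the single-pass receptors of the immunoglobulin superfamily that bind them. Binding mostly repels growing axons and migrating neurons, with heparan sulfate as a partner of the ligand and receptor. The srGAPs bind the cytoplasmic part of Robo and switch off small GTPases, and so link the receptor to the actin skeleton. In the developing forebrain the pathway is known for keeping axons off the midline, for steering migrating interneurons and for acting on progenitors.

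The libraries held between 20809135 and 29098454 fragments, and all values are fragments per locus divided by a size factor of the library, here called normalized fragments. Dyrk1a stood at 3938 to 5877 in 189N3 mice against 2126 to 2977 in their littermates, with no overlap. Dyrk1a stood at 2124 to 4781 in Dp(16)1Yey/+ mice against 2397 to 3175, and the library labelled Dp(16)1Yey replicate 1 lay under all its littermates. In that library the median gene of the triplicated stretch was 0.10 above the littermates on the log2 scale, against 0.40 to 0.69 in the other 3. By the same measure, still against the littermates of Dp(16)1Yey/+, 189N3 replicate 2, which carries no such duplication, stood at 0.40. The littermates of 189N3 stood at 0.016 to 0.099 on this scale. Across the lines a value of 0.40 thus does not mark the duplication by itself. The littermates of Dp(16)1Yey/+ fell into 2 nearly alike pairs, replicates 0 and 1, and replicates 2 and 3: their squared differences were 1.65 and 2 times counting noise, whereas any other 2 libraries of the same group differed by 8.93 to 110 times that noise. All libraries were kept under their labels. Of the 8 hippocampal markers listed, 7 were found, and their summed value ran from 4794 to 12533 over the libraries. The 10 striatal markers were found as well, and their sum ran from 548 to 2555.

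**Figure D1:**
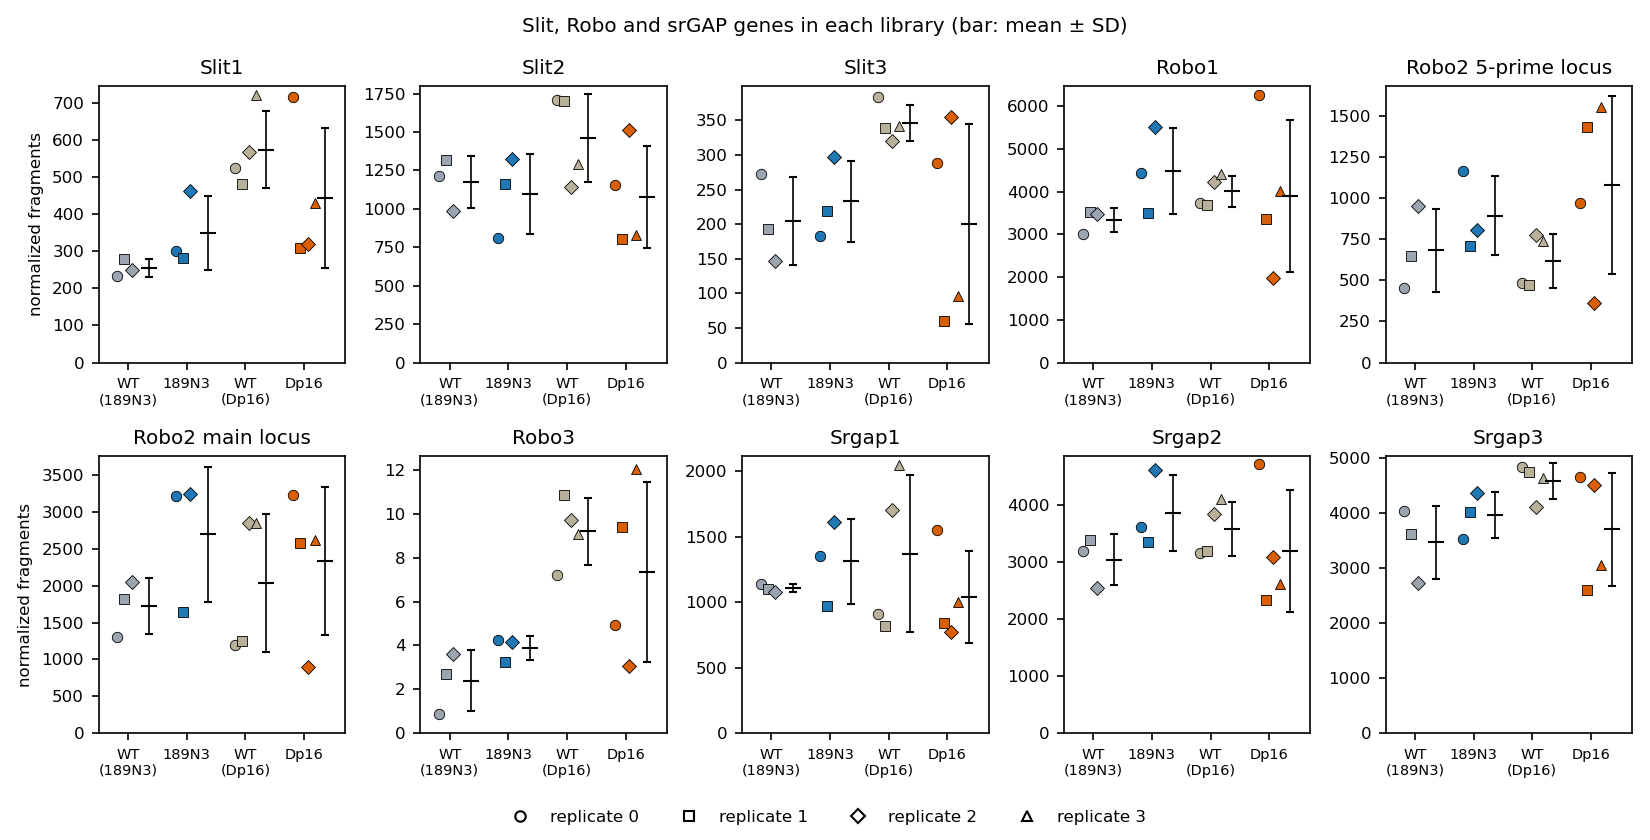
Normalized fragments (vertical axes, from 0) of each Slit, Robo and srGAP locus in each of the 14 libraries, with 1 panel per locus; marker shapes give the replicate number as labelled, and bars give mean ± SD. Dp16 stands for Dp(16)1Yey/+ and WT for the wild-type littermates of the line in brackets. Slit3 splits the Dp16 libraries into 2 low and 2 high ones, and Robo2 and Srgap1 split the littermates of Dp16 into their 2 nearly alike pairs.

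In 189N3 mice 0 of the 8 members that could be tested changed, with Robo2 counted by its 5′ locus and Robo3 too low to test. Of these, 7 were higher and 1 was lower than in the littermates, where 43.8% of all 35899 loci tested were higher at any p, and the median log2 difference was 0.28 against -0.04 over all loci. No locus of the whole table passed an adjusted p of 0.05 in limma (0% called), 1.87% had an unadjusted p under 0.05, and none of the members did. The 7 meningeal and fibroblast markers listed were all lower in 189N3 mice, 3 of them at an unadjusted p under 0.05. Striatal markers were higher for 8 of 10 and endothelial ones for 5 of 6, each list with 1 higher marker at that level. Progenitor markers were lower for 5 of 6, with none at that level. Hippocampal, choroid plexus, Cajal-Retzius and interneuron markers went both ways, with none at that level. The part of these lists in the result was not tested. By edgeR 0 loci passed and by DESeq2 15, with no member among them. In Dp(16)1Yey/+ mice the same 8 loci gave 0 calls, with 1 locus higher and 7 lower, where 45.1% of all 36024 loci were lower at any p. The median log2 difference was -0.34 against 0.03 over all loci. Here too 0% of loci were called, 3.53% had an unadjusted p under 0.05, and edgeR called 0 loci and DESeq2 8, again with no member among them. Of the 7 meningeal and fibroblast markers 6 were higher here, 2 of them at an unadjusted p under 0.05. Most other marker lists were mainly lower, as the members were. That held for 6 of 6 Cajal-Retzius, 6 of 7 hippocampal, 5 of 6 endothelial, 8 of 10 striatal and 6 of 8 interneuron markers. None of these had an unadjusted p under 0.05. Of the 7 choroid plexus markers 5 were lower, 1 of them (Htr2c) at an unadjusted p under 0.05. The 6 progenitor markers split into 3 higher and 3 lower. The part of these lists was not tested. The single member with an unadjusted p under 0.05 was Slit3, and it was lower, as were 1.82% of all loci at that level. The members share their libraries, so their directions are not separate observations.

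**Figure D2:**
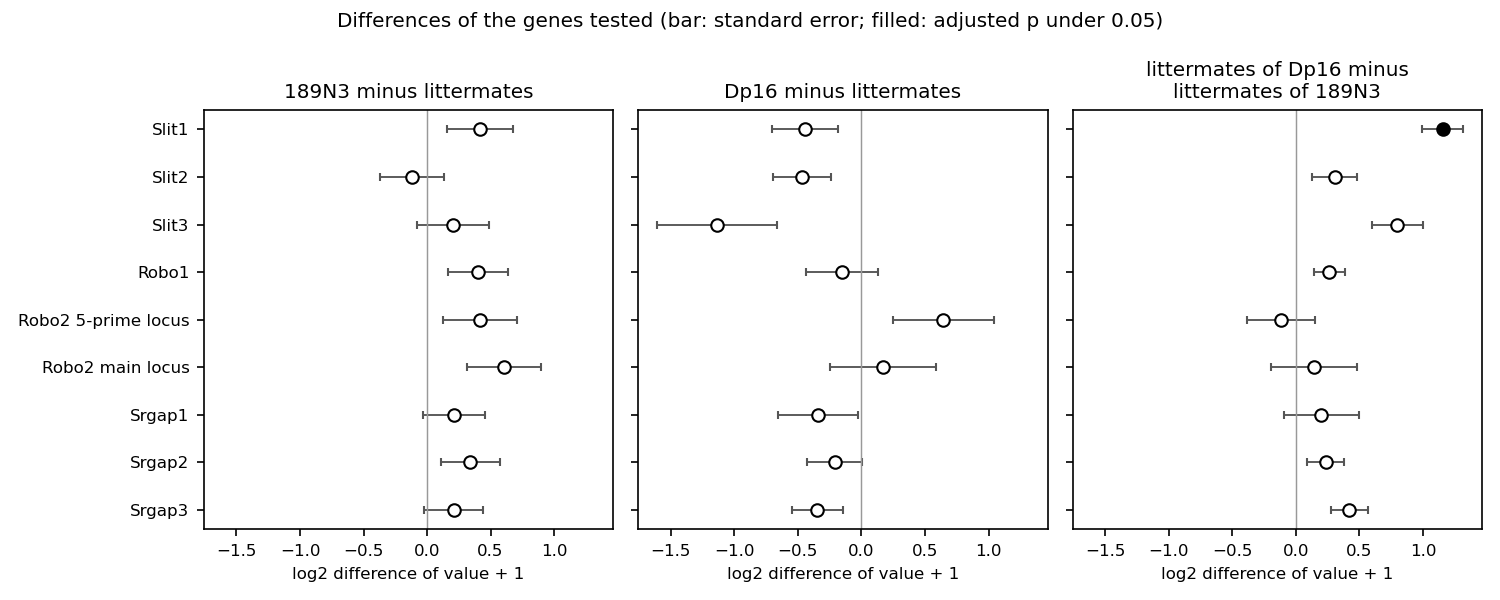
Difference of mean log2(value + 1) (horizontal axis) for each locus tested, with limma's standard error as the bar, in 189N3 against littermates, Dp(16)1Yey/+ against littermates, and the littermates of Dp(16)1Yey/+ against those of 189N3. The only filled point, an adjusted p under 0.05, is Slit1 between the littermates of the 2 lines, at 1.16.

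Slit1 (XLOC_027541, chromosome 19 of mm10 from 41600257 to 41743665, minus strand) encodes a Slit made mainly by neural tissue. It stood at 299, 282 and 463 normalized fragments in 189N3 replicates 0, 1 and 2, against 234, 279.8 and 250.1 in their littermates. All 3 of the 189N3 libraries lay above all 3 littermates, replicate 1 by only a few fragments, and 1.99% of all loci tested did the same. The log2 difference was 0.42 (standard error 0.26, limma adjusted p = 1.00), with an exact two-sided permutation p of 0.10, the smallest that 3 against 3 libraries can give. Without 189N3 replicate 2 the log2 difference was 0.19. Slit1 of Dp(16)1Yey/+ replicates 0 to 3 stood at 715, 309, 319 and 429, against 523, 482, 569 and 721 in the littermates. Of the 4 Dp(16)1Yey/+ libraries 3 lay below all littermates, and replicate 0 lay near the highest of them. The log2 difference was -0.44 (standard error 0.26, limma adjusted p = 0.909, exact permutation p = 0.20). The difference between these genotype effects was -0.86 on the log2 scale (standard error 0.38, unadjusted p = 0.0376, limma adjusted p = 0.922).

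Slit2 (XLOC_039485, chromosome 5 from 47983138 to 48307733, plus strand) is the ligand best known for repelling forebrain axons. In 189N3 replicates 0 to 2 it stood at 809, 1159 and 1323, and in the littermates at 1215, 1319 and 988. The groups overlapped fully, with a log2 difference of -0.12 (standard error 0.25, limma adjusted p = 1.00). Among Dp(16)1Yey/+ replicates 0 to 3 it stood at 1158, 806, 1513 and 830.3, against 1706, 1704, 1143 and 1291 in the littermates. Replicates 1 and 3 lay below all littermates and the other 2 lay among them. This gave a log2 difference of -0.47 (standard error 0.23, limma adjusted p = 0.909, exact permutation p = 0.143).

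Slit3 (XLOC_006878, chromosome 11 from 35121224 to 35708507, plus strand) is a ligand that is also made by vessels and mesenchyme. In Dp(16)1Yey/+ replicates 0 to 3 it stood at 289, 59.9, 355 and 96.6 normalized fragments, which are 292, 51, 348 and 96 fragments. The littermates stood at 383, 339, 321 and 342. Of the Dp(16)1Yey/+ libraries 3 were below all littermates and replicate 2 was among them, and the low values were those of replicates 1 and 3. The means were 200.1 ± 144 (SD, n = 4) against 346 ± 26.4 (SD, n = 4), and the log2 difference was -1.14 (standard error 0.47, unadjusted p = 0.0338, limma adjusted p = 0.909, exact permutation p = 0.114). With the library labelled Dp(16)1Yey replicate 1 left out it was -0.68, and over all libraries left out in turn it ran from -1.53 to -0.68. In 189N3 mice Slit3 stood at 183, 219 and 297 against 273, 193 and 147, which overlap. The difference between the genotype effects was -1.34 (standard error 0.65, limma adjusted p = 0.922). The summed endothelial markers were lowest in the same 2 Dp(16)1Yey/+ libraries, at 1376 in replicate 1 and 1146 in replicate 3, against 2138 to 2299 in the littermates. The summed hippocampal markers were also lowest there, at 4794 and 4825, and so were the summed Cajal-Retzius markers, at 11907 and 10353. Striatal, choroid plexus, interneuron and progenitor sums were not lowest in both of these libraries. Summed meningeal and fibroblast markers were not lowest there. They stood at 493, 2974, 1390 and 1149 in Dp(16)1Yey/+ replicates 0 to 3, against 499.8 to 1193 in the littermates. The part of these lists in the Slit3 values was not tested.

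Robo1 (XLOC_020380, chromosome 16 from 72308306 to 73046095, plus strand) is a Slit receptor of growing axons. It stood at 4441, 3495 and 5508 in 189N3 mice against 3013, 3531 and 3481 in their littermates. Replicates 0 and 2 were above all littermates and replicate 1 was among them. The log2 difference was 0.40 (standard error 0.23, limma adjusted p = 1.00). Robo1 of Dp(16)1Yey/+ mice stood at 6261, 3363, 1982 and 4014, against 3731, 3681, 4217 and 4425 in the littermates. These values reached both above and below the littermates, with an SD of 1785 against 366. The log2 difference was -0.15 (standard error 0.28, limma adjusted p = 0.928), and it became 0.13 without replicate 2.

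Robo2 (chromosome 16 from 73891839 to 74411825, minus strand) encodes a Slit receptor that is also known for a role in the choice of synaptic partners. The gene lies proximal to the triplicated stretch, which runs from Lipi to Zbtb21 (75540514 to 97962622 by GENCODE). The gap is 1129 kb by the GENCODE end of Robo2 and 93.1 kb by the RefSeq end, which places a start of the gene further out. The 5′ locus in Dp(16)1Yey/+ replicates 0 to 3 stood at 969, 1435, 364 and 1555, against 482, 473, 778 and 740.2 in the littermates. Of the 4 libraries 3 lay above all littermates, and replicate 2 lay below all of them. This gave a log2 difference of 0.65 (standard error 0.40, limma adjusted p = 0.909, exact permutation p = 0.314). Over all libraries left out in turn this difference ran from 0.40 to 1.10, the latter without replicate 2. The main locus stood at 3238, 2576, 891 and 2619.6, against 1193, 1254, 2849.7 and 2852. There the littermates themselves fell into a low and a high pair. The log2 difference of the main locus was 0.17 (standard error 0.42, limma adjusted p = 0.947), and it turned to between -0.05 and -0.02 without replicate 0 of Dp(16)1Yey/+ or without either of the low littermates.

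With both loci summed, Robo2 stood at 4207, 4012, 1255 and 4174 in Dp(16)1Yey/+ mice against 1675, 1727, 3628 and 3592 in the littermates. Again 3 of 4 libraries were above all littermates and replicate 2 was below all of them, with a log2 difference of 0.31 and an exact permutation p of 0.714. The main locus of 189N3 mice stood at 3214, 1639 and 3245 against 1304, 1814 and 2053. Replicates 0 and 2 lay above all littermates and replicate 1 lay among them, with a log2 difference of 0.60 (standard error 0.29, unadjusted p = 0.0545, limma adjusted p = 1.00). The 5′ locus stood at 1164, 707 and 807 in 189N3 mice against 452, 647 and 951, a log2 difference of 0.42 (standard error 0.29, limma adjusted p = 1.00).

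The ratio of the 5′ locus to the main locus was 0.299, 0.557, 0.409 and 0.593 in Dp(16)1Yey/+ replicates 0 to 3, against 0.404, 0.377, 0.273 and 0.260 in the littermates. The mean was 0.465 ± 0.136 (SD, n = 4) against 0.329 ± 0.0729 (SD, n = 4). In this ratio 3 libraries were above all littermates and replicate 0 was among them. The exact two-sided permutation p on the log2 ratio was 0.114, and 0.267 with each nearly alike pair of littermates as 1 sample. In 189N3 mice the ratio was 0.362, 0.432 and 0.249 against 0.347, 0.357 and 0.463, which overlap. This ratio was chosen after its values were seen.

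**Figure D3:**
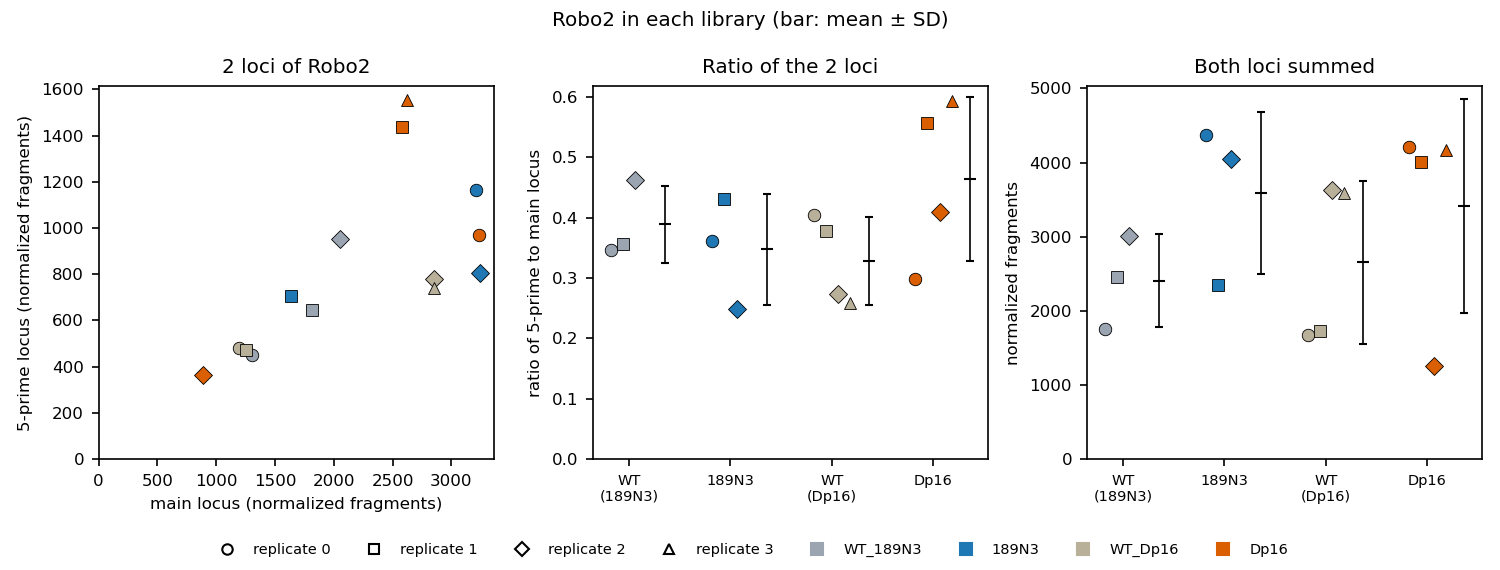
Robo2 in each library: the 5′ locus against the main locus (left, both axes in normalized fragments), the ratio of the 2 loci (middle) and their sum in normalized fragments (right); bars give mean ± SD, shapes the replicate number, and Dp16 stands for Dp(16)1Yey/+. Dp16 replicates 1 and 3 have the highest ratios, 0.557 and 0.593, and Dp16 replicate 2 has the lowest sum, 1255.

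Robo2 and Slit2 differed in opposite directions between the nearly alike pairs of Dp(16)1Yey/+ littermates, and marker sums differed with both. In the littermates, replicates 0 and 1 had summed hippocampal markers of 12533 and 11895 and summed striatal markers of 696 and 727. Replicates 2 and 3 had 5895 and 6464 for the hippocampal sum and 2533 and 2555 for the striatal sum. Slit2 was the higher and Robo2 the lower in the first pair. Dp(16)1Yey/+ replicate 2, with the lowest Robo2 values and the highest Slit2 of its group, had a hippocampal sum of 11777 and a striatal sum of 548. Summed Cajal-Retzius markers went the same way as the hippocampal ones, at 25423 and 25174 in the first littermate pair, 14180 and 15581 in the second and 24381 in Dp(16)1Yey/+ replicate 2. These lists were picked for showing after their values were seen, and their part in the values of Robo2 and Slit2 was not tested. Other lists split these littermates likewise. Summed interneuron markers were 2531 and 2398 in the first pair and 5698 and 5888 in the second, and summed progenitor markers were 22716 and 22292 against 16266 and 17609. The order did not hold in every library of the line, since Dp(16)1Yey/+ replicate 0 had the highest main locus (3238) of its group but not the lowest Slit2 (1158).

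**Figure D4:**
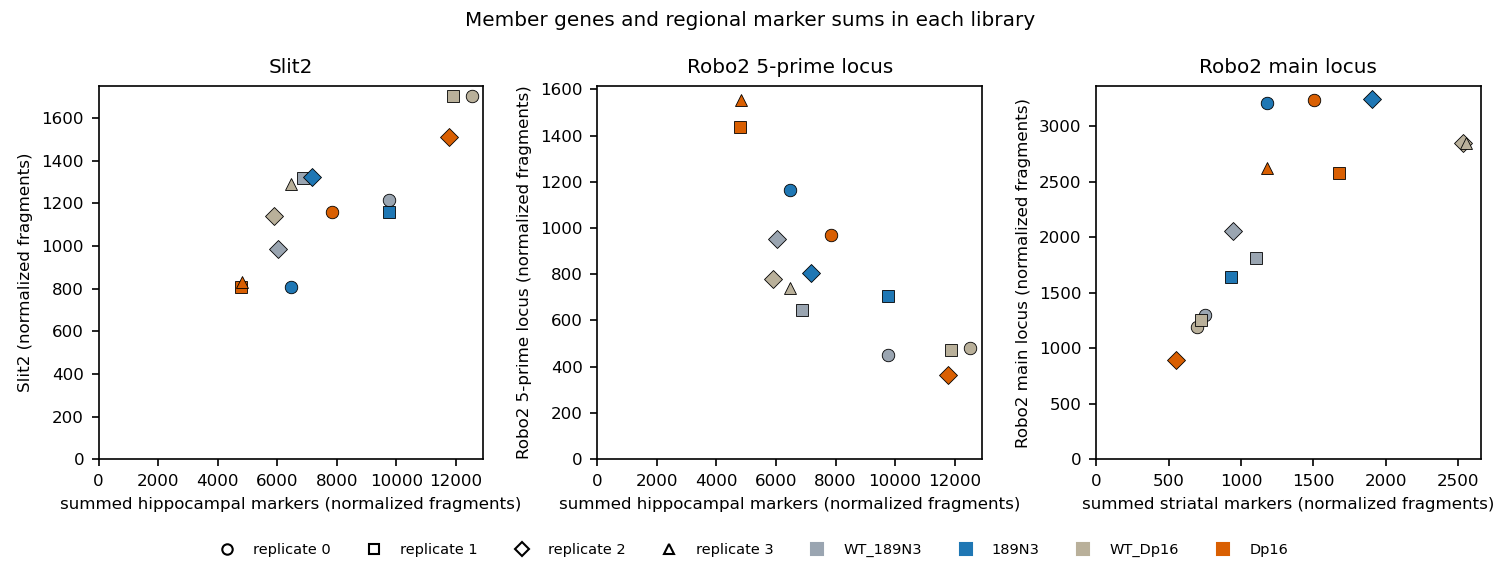
Slit2 and the 5′ locus of Robo2 against the summed hippocampal markers, and the main locus of Robo2 against the summed striatal markers, in normalized fragments, with 1 point per library, shapes for the replicate number and Dp16 for Dp(16)1Yey/+. The 3 libraries with the highest hippocampal sums, 11777 to 12533, have the 3 highest Slit2 values, 1513 to 1706, and 3 of the 4 lowest values of the 5′ locus, 364 to 482.

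Robo3 (XLOC_055809, chromosome 9 from 37415669 to 37433246, minus strand) is the divergent receptor known for letting commissural axons reach the midline. It was counted at 5, 4 and 4 fragments in 189N3 replicates 0 to 2 and at 1, 3 and 3 in their littermates. It had 5, 8, 3 and 12 fragments in Dp(16)1Yey/+ replicates 0 to 3, and in their littermates 7, 11, 9 and 9. All littermates of Dp(16)1Yey/+ lay above all littermates of 189N3, as they did for 14.7% of the loci tested, which do not include Robo3. The gene's mean was below the minimum of 10, so it was not tested, and at these counts a difference between genotypes was not detectable.

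Srgap1 (XLOC_006424, chromosome 10 from 121780991 to 122047315, minus strand) acts downstream of Robo1 on the GTPase Cdc42. It stood at 1354, 968 and 1609.7 in 189N3 mice against 1141, 1098 and 1078 in their littermates. The littermates were close together and the transgenic libraries lay on both sides of them, with a log2 difference of 0.21 (standard error 0.24, limma adjusted p = 1.00) that ran from 0.051 to 0.42 with a library left out. The 4 Dp(16)1Yey/+ libraries stood at 1548, 840.4, 775 and 1002, against 913, 816, 1702 and 2045. As for Robo2, replicates 2 and 3 of the littermates were high and replicates 0 and 1 low. The log2 difference was -0.34 (standard error 0.32, limma adjusted p = 0.909), and from -0.55 to -0.11 with a library left out.

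Srgap2 (XLOC_002810, chromosome 1 from 131285251 to 131527352, minus strand), known for shaping membrane protrusions, migration and spine maturation, stood at 3623, 3352 and 4620.4 in 189N3 mice against 3195, 3392 and 2551. Replicates 0 and 2 were above all littermates, and the log2 difference was 0.34 (standard error 0.23, limma adjusted p = 1.00). Its values in Dp(16)1Yey/+ mice were 4724, 2327, 3089 and 2616 against 3163, 3192, 3852 and 4112. Replicate 0 was above all littermates and the other 3 were below all of them, with a log2 difference of -0.21 (standard error 0.22, limma adjusted p = 0.909).

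Srgap3 (XLOC_045484, chromosome 6 from 112717971 to 112947266, minus strand) encodes the srGAP also known as WRP, a partner of the WAVE complex. It stood at 3531, 4022 and 4364 in 189N3 mice against 4036, 3627 and 2732, which overlap. In Dp(16)1Yey/+ mice it stood at 4656, 2602, 4505 and 3049, against 4842, 4746, 4112 and 4644. The low libraries, replicates 1 and 3, were those in which Slit3 and Slit2 were low too. The log2 difference was -0.35 (standard error 0.20, limma adjusted p = 0.909, exact permutation p = 0.20).

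The difference between the genotype effects gave 0 calls among 36045 loci (0%), by edgeR and DESeq2 as well, with 957 loci at an unadjusted p under 0.05 (2.66%, or 1.12% as lower), among them Slit1 as the single member. Of the 8 member loci 7 were lower in this difference and 1 was higher, where 42.8% of all loci were lower. It ran from -1.34 for Slit3 to 0.23 for the 5′ locus of Robo2, and the latter became -0.25 with both loci of Robo2 summed. At -0.55 to -0.56, Robo1, Srgap1, Srgap2 and Srgap3 had near-equal values with limma adjusted p-values of 0.922.

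Between the wild-type littermates of the 2 lines, Slit1 was the member that changed. It was higher in the littermates of Dp(16)1Yey/+, at 574 ± 104 (SD, n = 4) against 255 ± 23.3 (SD, n = 3), with no overlap and a log2 difference of 1.16 (standard error 0.16, limma adjusted p = 0.0244). Of the 8 members tested 7 were higher, 1 was called and 3 had an unadjusted p under 0.05. Of all 36047 loci 56.7% were higher, 3.75% were called, 2.29% as higher, and 26% had an unadjusted p under 0.05. The exact two-sided permutation p was 0.0571, the smallest that 4 against 3 libraries can give. The call was lost at an adjusted p of 0.118 with the nearly alike littermates averaged, at 0.0881 in 1 fit of all 4 groups, at 0.0676 with the replicate number as a block and at 0.0524 without a trend. It was also lost without any of the 3 littermates of 189N3 (0.0798 to 0.135) and without replicate 0 or 2 of the littermates of Dp(16)1Yey/+ (0.0632 and 0.0501). Line, litter and time of collection cannot be told apart in this comparison.

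Slit3 was at 346 ± 26.4 (SD, n = 4) against 204 ± 63.5 (SD, n = 3) in these littermates, without overlap, a log2 difference of 0.80 (standard error 0.20, limma adjusted p = 0.0548). Robo1 and Srgap3 did not overlap either, with log2 differences of 0.26 and 0.42 and adjusted p-values of 0.200 and 0.112. So 4 of the 8 member loci tested lay fully higher in the littermates of Dp(16)1Yey/+, as did 14.7% of all loci. The 5′ and main loci of Robo2 differed by -0.12 and 0.14, Slit2 by 0.30, Srgap1 by 0.20 and Srgap2 by 0.23, with adjusted p-values from 0.305 to 0.827. Meningeal and fibroblast markers were lower in the same littermates for 7 of 7 genes, with summed values of 499.8 to 1193 against 2039 to 5733. Of these 3 were called, as were 3.75% of all loci in either direction. Choroid plexus markers were lower for 7 of 7 genes, none called. Progenitor markers were higher for 6 of 6 genes, 2 of them called. Striatal markers were higher for 9 of 10 and hippocampal ones for 6 of 7, none called. Cajal-Retzius (1 called), endothelial and interneuron markers went both ways. The part of these lists in the values of the members was not tested.

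Levels can be set between genes only per length. Per kb of the longest GENCODE transcript, the mean over the 14 libraries was 521 normalized fragments for Robo1 and 446 for Srgap3. Srgap2 followed at 425 and Robo2, with both loci summed, at 351. Srgap1 (155) and Slit2 (122) were lower, and Slit1 (74.0) and Slit3 (47.8) lower again. Robo3 was last at 1.22. Robo2 was above Srgap1 and Slit3 above Robo3 in 14 of 14 libraries. Neighbours at the top were not separated by their spread, since Robo1 was above Srgap3 in 10 libraries, Srgap3 above Srgap2 in 8 and Srgap2 above Robo2 in 10. On this scale the means of the receptors and srGAPs, Robo3 aside, lay above those of the ligands. Srgap1 was, however, above Slit2 in only 11 of 14 libraries. Opposite-strand loci are left out of these levels. For Slit3 they had a mean of 5173 against 250 for the gene. For Slit2, Robo2, Srgap2 and Srgap3 they had 1.85, 1.10, 1.90 and 1.63 times the gene's mean, and for Slit1 and Srgap1 0.59 and 0.55 times. The order thus holds only for fragments counted to each gene's own loci. Per kb of merged exons Srgap3 was first at 402, Srgap2 second at 272 and Robo1 at 239, and only 4 of the 9 genes kept their place.

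**Figure D5:**
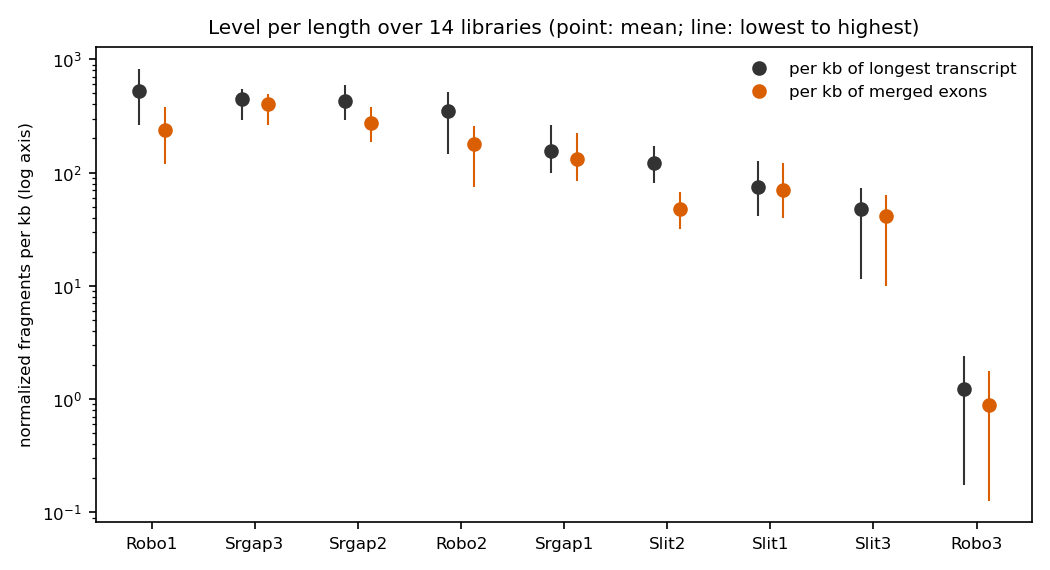
Normalized fragments per kb (vertical log axis) of the 9 genes over the 14 libraries, as mean and range, per kb of the longest transcript and of the merged exons. Robo1, Srgap3 and Srgap2 have the highest means per kb of the longest transcript, 425 to 521, and Robo3 lies near 1 on both scales.

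The isoform table held 43 transcripts of these genes, and 32 had a mean of at least 10. No member isoform was called in either model: of 32 tested in 189N3 mice 1 had an unadjusted p under 0.05, as did 2.56% of all isoforms, and 0.0366% of all isoforms were called. For Dp(16)1Yey/+ mice 34 were tested and 1 had an unadjusted p under 0.05, as did 3.48% of all, with 0.0214% called. Slit3 had a single transcript. Slit1 and Srgap1 were each carried mainly by 1 transcript, with 94.1% and 99.2% of the gene. Robo1 had 79.3% of its value in TCONS_00036170, which is joined differently from the annotated uc007zrb.1 that it resembles. Srgap3 was shared mainly by 2 such transcripts, at 42.5% and 51.1%.

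The Slit2 isoform was TCONS_00070129 (uc008xjr.1), at 40.9, 70.3 and 51.9 in 189N3 mice against 103, 99.2 and 75.7. These values did not overlap, as was so for 3.66% of all isoforms tested in this direction, and the log2 difference was -0.78 (standard error 0.29, unadjusted p = 0.0360, limma adjusted p = 1.00). The Srgap2 isoform was TCONS_00005007, at 119.9, 138, 99.1 and 0.001 in Dp(16)1Yey/+ mice against 0 to 0.08 in the littermates. It was near 0 in 10 of the 14 libraries and at 284 in 1 littermate of 189N3. The estimate thus was either near 0 or at 99.1 to 284, and its limma adjusted p was 0.945 in Dp(16)1Yey/+ mice, or 0.0168 without replicate 3. The 3 transcripts of Robo2 were uc007zrf.1 (66.0% of the gene), uc007zri.1 (6.76%) and uc007zrl.1 (27.3%), the last being the 5′ locus itself.

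Opposite strands of these genes carried many fragments. The table has 18 loci that overlap exons of a member on the other strand, and all had a mean of at least 10. Summed per gene they had a mean of 5173 for Slit3, where the gene itself had 250 (249.9), and exceeded the gene in 14 of 14 libraries. They exceeded the gene in 13 of 14 libraries for Slit2, Srgap2 and Srgap3 as well, but in 0 of 14 for Slit1. The kit marks strand, and whether the counting used it is not given in the sources used here, so a gene and its opposite-strand loci cannot be fully told apart. The opposite-strand loci of Robo2, XLOC_020388 and XLOC_020396, differed by 0.75 and 0.65 in Dp(16)1Yey/+ mice on the log2 scale, beside 0.65 for the 5′ locus, with limma adjusted p-values of 0.909. Of the 18 loci 1 had an unadjusted p under 0.05 in Dp(16)1Yey/+ mice, XLOC_005038 at Srgap1, at 0.42 (standard error 0.17, limma adjusted p = 0.909). The largest opposite-strand locus of Slit3, XLOC_008860, stood at 2178, 1328, 8902 and 2549 in Dp(16)1Yey/+ mice and at 9432, 9346, 3145 and 3309 in the littermates, and so split the littermates as the hippocampal markers did, whereas Slit3 itself did not. With each gene and its opposite-strand loci summed, Slit3 and Srgap3 turned to -0.28 and -0.02 in 189N3 mice. Srgap2 went from 0.34 to 0.014 there and Slit2 from -0.12 to -0.30. In Dp(16)1Yey/+ mice the sums gave -0.38, -0.43 and -0.95 for Slit1, Slit2 and Slit3, and 0.51 for Robo2. Srgap1, Srgap2 and Srgap3 stood at -0.11, -0.049 and -0.18 in that model. With these sums 0 members were called in either model.

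Other genes of the pathway were counted from a list of 54, of which 52 could be tested. In 189N3 mice 40 were higher and 12 lower, with 0 at an unadjusted p under 0.05. Over all loci 43.8% were higher there and 1.87% were at that level. The same list had 16 genes higher and 36 lower in Dp(16)1Yey/+ mice, where 45.1% of all loci were lower. There 3.53% of all loci had an unadjusted p under 0.05, and so did 1 gene of the list. That gene was Flrt2, which encodes a membrane protein that binds guidance receptors, with a log2 difference of 0.31 (standard error 0.14, limma adjusted p = 0.909). The median log2 difference of the list was 0.14 in 189N3 mice and -0.11 in Dp(16)1Yey/+ mice, beside -0.04 and 0.03 over all loci. By role, coreceptors and other ligands or receptors were lower in Dp(16)1Yey/+ mice for 14 of 19, heparan sulfate enzymes for 5 of 6, cytoplasmic effectors for 15 of 23 and turnover genes for 2 of 4. Between the littermates of the 2 lines 6 of the 52 were called, all higher in those of Dp(16)1Yey/+: Gpc1, Ntn1, Abl1, Arhgap39, Myo9b and Nedd4. These 6 were named after their values were seen, and over all loci 3.75% were called, 2.29% as higher. All calls of this comparison fell from 1351 to 28 with the nearly alike littermates averaged and to 13 to 78 with any library left out. Ntn1, which encodes the attractant netrin-1, had a log2 difference of 1.11 (standard error 0.14, limma adjusted p = 0.0158).

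The genes whose values varied most like each member were sought among 11274 named loci, by Pearson's r of the deviations from group means over the 14 libraries. These r are descriptions, since the libraries share tissue makeup and size factors. Slit1 was nearest to Unkl (0.97), Slit2 to Tet1 (0.97) and Slit3 to Ahcyl2 (0.98). Robo1 was nearest to Dab1 (0.97), a signalling gene of the reelin pathway. The main locus of Robo2 was nearest to Sybu (0.99) and the 5′ locus to Kcnh5 (0.94). Srgap1 was nearest to Wasf1 (0.98), which encodes a WAVE protein, Srgap2 to the semaphorin receptor gene Plxna1 (0.99) and Srgap3 to Klf7 (0.99). Among the members themselves Slit3 and Srgap3 were the most alike (0.95), and Slit2 and the 5′ locus of Robo2 the most opposed (-0.88).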

How the data were processed

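The sample labels gave genotype, replicate number and tissue for 14 libraries, and all were used. Per the labels and the study's methods, total RNA (labelled polyA RNA) was sequenced as stranded paired reads and processed with Bowtie, TopHat and Cufflinks on mm10, with bias and multi-read correction switched on. The deposited signal values of the gene table are fragments per locus divided by 1 size factor per library. In each library 100% of the values above 0 were whole numbers of fragments to within a tolerance. This was 0.01, or a small fixed share of the fragment number where that was larger. The whole fragments were recovered for count tests. The deposited isoform table holds estimated shares on the same signal scale. The deposited map differs from the tables in its identifiers, so loci were named by matching sums of isoforms: 59671 of 59796 loci were matched and 28090 named.

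Differences were tested on log2(value + 1), which understates changes of low loci, in limma 3.58.1 (R 4.3.3) with a trend, for loci with a mean of at least 10, adjusted by Benjamini-Hochberg over all loci at 0.05. Alternatives included edgeR 4.0.16 and DESeq2 1.42.0 on recovered fragments. Exact permutation tests used SciPy 1.17.1. The limma and edgeR tests were also run on simulated counts, drawn independently for each library, and their recovery is not reported here. Coordinates and lengths come from GENCODE vM21 (GRCm38, as mm10). Members, lists and tests were chosen with earlier results of these data known. Named were all members, their isoforms past an unadjusted p of 0.05, list genes past it in either model, and the nearest genes by r among those with a mean of at least 100. Dcc, Pak2 and Neurod1 were not analysed here. No sequence is shown, since the deposited tables give no positions; only the study's own list places the 5′ locus of Robo2 near the gene start.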

Additional observations from a re-analysis of the deposited data

Results flagged for a closer look

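With both loci summed, Robo2 in the library labelled Dp(16)1Yey replicate 2 stood at 1255 normalized fragments, far from the other 3 Dp(16)1Yey/+ libraries at 4012 to 4207. The gap to the nearest of them was 0.934 of the range of the 4, above Dixon's limit for 4 samples; chance flags about 1 group in 20.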

How the results depend on the processing

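Libraries are few and uneven, p-values rest on 3 or 4 libraries a group, and Robo3 was too low to test. Of 1092 alternative values 1012 kept direction and side of the threshold (counts within 1.5 times), 46 counts moved, 22 values reversed, 9 lost and 3 gained a call; the cause was not tested. In 189N3 mice 0 called loci became 4 with median-ratio size factors, 72 with the replicate block, 15 by DESeq2 and 0 to 28 with a library left out (28 without littermate replicate 1). In Dp(16)1Yey/+ mice 0 became 8 by DESeq2 and 0 to 3 with a library left out; the difference between effects gave 0 to 1, the 1 without Dp(16)1Yey replicate 1, as were the 3. Between the littermates of the lines 1351 became 614 without a filter, 75 with the block, 40 in 1 fit of all groups, 85 without a trend, 28 with nearly alike littermates averaged, 3282 by DESeq2 and 13 to 78 with any library left out. Called isoforms in 189N3 mice (22) became 3 and 14 at pseudocounts 0.1 and 10, 172 without a filter, 0 at a mean of at least 100, 0 with the block, 7 in 1 fit, 121 without a trend and 0 to 12 with a library left out; in Dp(16)1Yey/+ mice (13) they became 45 without a filter, 0 at a mean of at least 100, 0 with the block, 3 in 1 fit, 34 without a trend, 1 with littermates averaged and 4 to 43 with a library left out. Per kb of merged exons 4 of 9 genes kept their place, and without centring on groups 5 of 30 likest genes were kept. Summing opposite-strand loci, chosen after seeing the data, reversed Slit3 (-0.28) and Srgap3 (-0.020) in 189N3 mice. Summing both Robo2 loci reversed the 5′ locus in the difference between effects (-0.25) and between littermates (0.076). The block reversed the main locus of Robo2 (-0.063) and Srgap1 (-0.030) between littermates and took the call from Slit1 (0.0676). With a library left out, signs changed for Slit2 (-0.27 to 0.088) and Slit3 (-0.0078 to 0.43) in 189N3 mice, for Robo1 (-0.42 to 0.13), the main locus of Robo2 (-0.045 to 0.58) and its isoform uc007zrf.1 (-0.081 to 0.58) in Dp(16)1Yey/+ mice, for the 5′ locus in the difference between effects (-0.044 to 0.68), and between littermates for the main locus (-0.063 to 0.36), the 5′ locus (-0.38 to 0.15) and Srgap1 (-0.030 to 0.41). Without a change of sign, ranges in Dp(16)1Yey/+ mice included -1.53 to -0.68 (Slit3), 0.40 to 1.10 (5′ locus) and -0.42 to -0.079 (Srgap2). In 189N3 mice they included 0.15 to 0.69 (5′ locus) and 0.049 to 0.33 (Srgap3). Replicate numbers did not pair the samples: same-numbered deviations correlated at -0.581 to 0.00895. Count models were not run on isoforms, whose values are estimates.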
